A study of Homo sapiens with 72 samples.

Results

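The genes described here are the enzymes that write and erase the 3 histone marks profiled in this series, with the core partners of the complex that writes one of them. Trimethylation of lysine 27 of histone H3 (H3K27me3) is a mark of silenced genes. It is laid down by Polycomb repressive complex 2 (PRC2), whose catalytic subunit is EZH2 or EZH1, with EED and SUZ12 as core partners and JARID2 as an accessory subunit, and it is removed by KDM6A (UTX) and KDM6B (JMJD3). Methylation of lysine 4 marks active starts (H3K4me3) and starts plus enhancers (H3K4me2). KMT2A (MLL1) and KMT2D (MLL4) are writers of lysine 4 methylation, KMT2D mainly at enhancers, and KDM5B is an eraser. In B-lineage leukemia and lymphoma, KMT2A is known for its fusions, KMT2D for loss-of-function changes and EZH2 for activating changes. The 10 genes were taken by name, of 20033 protein-coding genes of GENCODE 44, and each was found once in hg38.

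The libraries were Cut&Tag, in which an antibody tethers a transposase to a mark so that nearby DNA is cut out and sequenced. They came from Raji, a Burkitt lymphoma line, and from NALM6 and REH, both pre-B acute lymphoblastic leukemia lines. Cells of each line were left untreated or kept in 1 nM bryostatin, an activator of protein kinase C, and each of the 3 marks was profiled in 3 libraries per line and treatment, 54 libraries in 18 groups. The labels give the exposure as overnight, and the study describes it as a full day. One H3K27me3 library, Raji untreated replicate 2, goes against its label in that its peaks lie over most H3K4me3-marked starts, and the results that rest on it are given with and without it. The 18 IgG control samples were not analysed here. Each group is 1 established line, the sources used here do not say whether the 3 replicates were separate cultures, and the p-values measure only the spread between these libraries. The labelled lineage was checked at the starts of marker genes in the 16 libraries of comparable scaling. In H3K4me3, 5 B-lineage starts were marked in every Raji and REH library and in 3 or 4 of 4 NALM6 libraries. No library had an H3K4me3 peak at 5 T cell and 3 erythroid markers. Of 6 pre-B markers, 5 were marked in every REH library, 3 in every NALM6 library and 1 in every Raji library. Of 5 mature B markers these counts were 2, 1 and 5. Of 4 myeloid markers, CSF1R had H3K4me3 in 1 of 6 REH libraries and H3K4me2 in all 6.

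A value is the signal of the peaks that the authors called with SEACR in each library. In 48 libraries the coverage is in RPKM (reads per kilobase, scaled to the number of mapped reads), and from 5.12M to 47.9M reads (M, 10 to the power of 6) were mapped, with a median of 18.8M. The 6 libraries of NALM6 replicate 1 have another scaling, and shorter peaks in the H3K4 marks, so levels in RPKM are given without them. A start peak is one that comes to within 1 kb of any start annotated for the gene. A peak that is missing from a shallow library is not read as absence of the mark.

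KDM5B and JARID2 are the genes on which the differences between lines turn, and their promoters are shown for that reason. The sequences are RefSeq promoters of GRCh38.p14, 250 bases before to 50 after the start, 5′ to 3′ on the gene's strand, with each CG dinucleotide in capitals. The 3 windows all lie inside the H3K4me3 regions described next, and JARID2 has a second RefSeq start within the same region.
KDM5B promoter, chr1:202808372-202808671, minus strand: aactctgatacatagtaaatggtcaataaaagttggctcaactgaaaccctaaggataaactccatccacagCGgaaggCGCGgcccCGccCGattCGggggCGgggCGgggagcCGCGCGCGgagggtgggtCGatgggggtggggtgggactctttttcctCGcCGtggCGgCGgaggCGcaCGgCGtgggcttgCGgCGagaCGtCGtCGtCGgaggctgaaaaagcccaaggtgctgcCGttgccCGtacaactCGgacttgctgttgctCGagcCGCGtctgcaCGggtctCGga
JARID2 promoter, chr6:15245819-15246118, plus strand: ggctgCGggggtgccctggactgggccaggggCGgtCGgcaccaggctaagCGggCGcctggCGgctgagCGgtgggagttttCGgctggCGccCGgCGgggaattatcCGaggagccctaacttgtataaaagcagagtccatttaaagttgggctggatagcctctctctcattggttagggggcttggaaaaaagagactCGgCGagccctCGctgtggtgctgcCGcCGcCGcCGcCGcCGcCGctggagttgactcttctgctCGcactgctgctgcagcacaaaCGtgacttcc
JARID2 second promoter, chr6:15248605-15248904, plus strand: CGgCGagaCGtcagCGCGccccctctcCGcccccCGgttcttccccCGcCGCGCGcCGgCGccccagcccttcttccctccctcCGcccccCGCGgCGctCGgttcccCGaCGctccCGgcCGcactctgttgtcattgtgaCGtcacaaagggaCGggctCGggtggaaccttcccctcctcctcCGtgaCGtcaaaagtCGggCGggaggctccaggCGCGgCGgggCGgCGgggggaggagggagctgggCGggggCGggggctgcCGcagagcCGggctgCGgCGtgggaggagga
The KDM5B window holds 34 CG dinucleotides and the JARID2 windows hold 24 and 40, where the median of 35116 RefSeq promoters is 14. All 10 genes matched the RefSeq table, with 13 windows in all. Their CG counts ran from 46 at the first of the EZH2 starts to 2 at the second KDM6B start, which lies inside the gene. GGGCGG, searched on both strands, was in 11 of the 13 windows and in 45.0% of all promoters. TATAAA, also on both strands, was in 1 window, the first of JARID2, and in 11.5% of all promoters. TGANTCA, which reads the same on both strands and is the letters of an AP-1 site, was in 1 window, that of KDM6A, and in 7.71% of all promoters.

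All 10 genes carried H3K4me3 at a start in each line. In Raji and REH every gene had a start peak in all 6 libraries of the line. The gaps were in NALM6, at EZH1 and SUZ12 in 1 library of each treatment, at EED in 1 treated library and at KDM6A in 1 untreated library. In all, 174 of the 180 pairs of gene and library had an H3K4me3 start peak. The 6 genes marked in all 18 libraries were EZH2, JARID2, KMT2A, KMT2D, KDM5B and KDM6B, where 21.8% of all protein-coding genes were marked in all 18. Without NALM6 replicate 1 the count was 8 of 10, beside 24.4% of all genes.

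H3K4me2 start peaks were present in 165 of the 180 pairs. EZH1, JARID2, KMT2A, KMT2D and KDM6B had one in all 18 libraries, beside 17.8% of all genes. KDM6A, the X-linked H3K27 demethylase (chrX:44873188-45112779, plus strand), was the member most often without one. It had an H3K4me2 start peak in 11 of 18 libraries, in 2 of 3 untreated and 3 of 3 treated Raji libraries, 0 of 3 and 2 of 3 NALM6 libraries, and 2 of 3 in each REH group. Where called, its H3K4me2 signal was between 81.3 and 216 RPKM per base, in the lowest 28.4% of marked starts of its library.

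The order of the genes by H3K4me3 signal per base, with the mark taken over the peak at the canonical start, was similar in the pre-B lines and different in Raji. KDM5B was first in both pre-B lines and ninth in Raji, and JARID2 was last in Raji and in the middle of the order elsewhere. In untreated REH the medians ran from 1048 RPKM at KDM5B, 934 at EZH2 and 932 at KMT2A to 363 at EED. In untreated Raji they ran from 1024 at EZH2, 968 at KMT2A and 836 at KMT2D to 292 at KDM5B and 210 at JARID2. Neighbours in these orders mostly did not differ beyond their spread, since the ranges of the 3 libraries overlapped in 6 of 9 neighbouring pairs in REH and 9 of 9 in Raji.

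**Figure D1:**
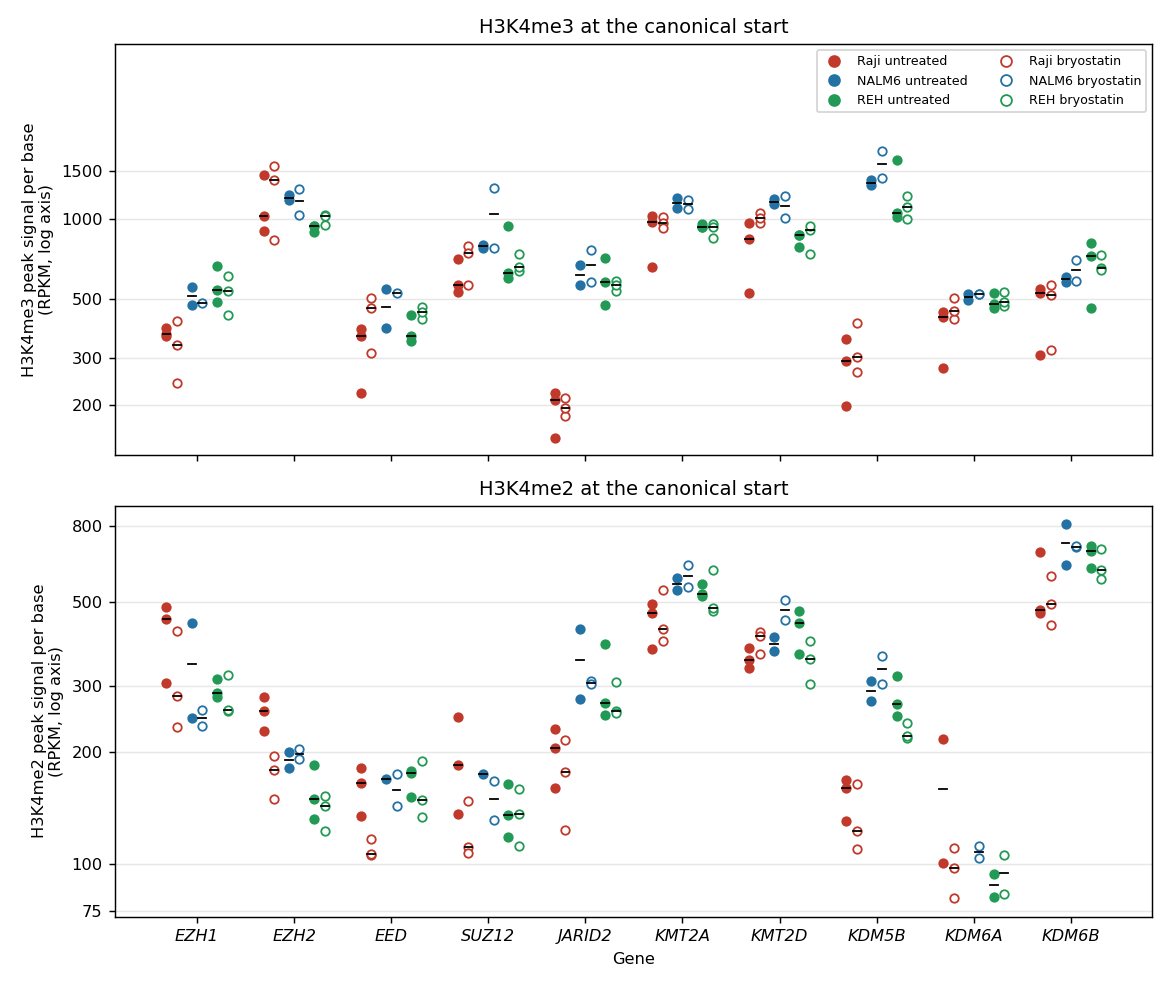
H3K4me3 (top) and H3K4me2 (bottom) signal per base of the peak at the canonical start of each gene, in RPKM on a log axis, by line and treatment. Each point is 1 library, filled if untreated and white inside if treated, short lines are medians, and NALM6 replicate 1 is left out. The Raji points of KDM5B and JARID2 lie below all NALM6 and REH points in H3K4me3, as do those of EZH1 by a smaller step, while the Raji points of the other 7 genes overlap the others.

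For H3K4me2 the order led with KDM6B, whose medians were 479 RPKM (Raji), 720 (NALM6) and 684 (REH), followed by KMT2A with 469, 559 and 527 for the same lines. At the low end were KDM6A, EED and SUZ12, with KDM5B in Raji and EZH2 in the pre-B lines. EZH2 was thus high for H3K4me3 and low for H3K4me2 in the same lines. Its H3K4me3 signal per base was at percentile 65.0 to 99.8 of marked starts and its H3K4me2 signal at percentile 6.4 to 58.0, over 16 libraries each.

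The genes also differed in the width of the H3K4me3 peak over the start. KMT2A (chr11:118436456-118526832, plus strand), KMT2D (chr12:49018975-49060794, minus strand) and KDM6B (chr17:7834217-7854796, plus strand) had peaks that were wide in every library. The KMT2A peak covered 3640 to 5150 bp, the KMT2D peak 3990 to 6780 bp and the KDM6B peak 3770 to 13310 bp over 16 libraries. Among all marked starts of the same library these widths were at percentile 88.9 to 98.7, 95.1 to 99.4 and 93.9 to 100. JARID2 had a wide peak in most pre-B libraries, with a median of 5260 bp, but ran from 1570 to 5920 bp over all 16. EZH1 (chr17:42700275-42745049, minus strand), the alternative catalytic subunit of PRC2, had the narrow peak, with 1130 to 2310 bp over 15 libraries at percentile 1.1 to 26.7.

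KDM6B is short, 20580 bp, and in some libraries 1 peak covered most of it. In untreated Raji the H3K4me3 peak over its start was 3850, 13010 and 13080 bp in the 3 replicates, and in treated Raji 5500, 13310 and 4810 bp. In REH it stayed between 4210 and 7470 bp. The groups overlap, and the length depends on whether SEACR joined neighbouring peaks. An H3K4me3 region further inside the gene, chr17:7850821-7852660 over a canonical exon, was called in 3 of 3 untreated and 1 of 3 treated Raji libraries and in none of NALM6 or REH. The region at the 3′ end of KDM6B, chr17:7854671-7859930, was marked in all 18 libraries and holds the starts of TMEM88, NAA38 and CYB5D1, so its signal cannot be given to KDM6B. Likewise the region at the 3′ end of KMT2D, chr12:49017221-49020390, holds the starts of PRKAG1 and DDN-AS1.

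KDM5B, the H3K4 demethylase (chr1:202724495-202808487, minus strand), had less H3K4me3 at its start in Raji than in either pre-B line. Its H3K4me3 region lies at chr1:202805671-202809290. The total signal there, divided by that of the median region in its library, was 0.463, 0.636 and 0.684 in the 3 untreated Raji libraries and 2.40, 2.49 and 2.73 in REH. Against NALM6, where the set of regions and so the scale is another, it was 0.410, 0.570 and 0.604 in Raji and 4.32, 2.55 and 2.60 in NALM6. No Raji library reached the level of any library of the other lines. The difference was 4.33-fold against REH, −2.11 ± 0.14 (SE) on the log2 scale with an adjusted p of 2.4e-06, and 5.88-fold against NALM6, −2.56 ± 0.26 with an adjusted p of 0.00073 (limma, Benjamini-Hochberg over all regions). As a level per base, the KDM5B peak ran from 199 to 407 RPKM over 6 Raji libraries and from 995 to 1790 over the 10 libraries of NALM6 and REH, with both treatments included.

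JARID2, the accessory PRC2 subunit (chr6:15246069-15522042, plus strand), moved the same way. Its region, chr6:15243811-15250010, also holds the starts of JARID2-DT and JARID2-AS1 on the other strand. The signal relative to the median region was 0.840, 0.798 and 0.755 in untreated Raji and 2.10, 1.82 and 1.87 in REH, which do not overlap. It was 2.41-fold lower in Raji than in REH, −1.27 ± 0.09 with an adjusted p of 3.14e-06, and 2.68-fold lower than in NALM6, −1.42 ± 0.14 with an adjusted p of 0.00062. Per base, JARID2 ran from 151 to 221 RPKM in Raji and from 474 to 763 in the other lines.

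EZH2, the main catalytic subunit of PRC2 (chr7:148807257-148884321, minus strand), was higher in Raji than in REH. Its values were 3.01, 2.80 and 3.23 times the median region in Raji and 2.10, 1.96 and 2.19 in REH, with no overlap. The difference was 0.53 ± 0.08 on the log2 scale, 1.45-fold, with an adjusted p of 0.00055. KDM6B was lower in Raji than in REH by a smaller step, −0.31 ± 0.09 with an adjusted p of 0.020, and this call was lost in 6 of 19 alternative settings. EZH1, EED, SUZ12, KMT2A, KMT2D and KDM6A did not pass the test between Raji and REH, with differences from −0.22 to 0.14.

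So 4 of 10 genes differed between untreated Raji and REH in H3K4me3, beside 51.3% of all 6729 regions tested (1 higher in Raji, beside 23.8%, and 3 lower, beside 27.5%), and 5 of 10 did not overlap between the groups, beside 60.8%. The median size of the difference, without its sign, was 0.19 over the 10 genes and 0.30 over all regions. Between Raji and NALM6, 2 of the 7 genes called in every library differed, both lower in Raji, beside 20.2% of 5148 regions (8.43% higher and 11.8% lower), and 3 did not overlap, beside 46.7%. Between NALM6 and REH, 0 of 7 differed, beside 7.15% of 5089 regions (2.99% higher in NALM6 and 4.17% lower), and 4 did not overlap, beside 40.8%. At an unadjusted p under 0.05 (limma) the count of these 7 was also 0, beside 1202 of 5089 regions. The called share of the members was thus below the background in Raji against REH and NALM6 against REH and above it in Raji against NALM6, with 7 to 10 genes in each.

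NALM6 replicate 1 bears on the comparisons with NALM6. With that library left out, 10 genes could be tested and 4 differed between NALM6 and REH, beside 44.7% of all regions, namely EZH2, KMT2A, KMT2D and KDM5B, all higher in NALM6 by 0.24 to 0.31 on the log2 scale. With replicate 1 of both lines left out, also 4 differed, beside 40.3%, EZH2, JARID2 and KMT2D higher in NALM6 and KDM6B lower (−0.31). KDM5B and JARID2 were the 2 called genes between Raji and NALM6 also without it, then of 10 tested and beside 45.1% of all regions. Without median centring all differences of Raji from NALM6 moved by 1.17 on the log2 scale, and KDM5B (−1.38) and JARID2 (−0.25) kept their sign but did not pass the test (adjusted p 0.82 and 0.92). EZH2 was 0.27 higher in Raji than in NALM6 without that library and −0.09 with it, neither of which passed.

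**Figure D2:**
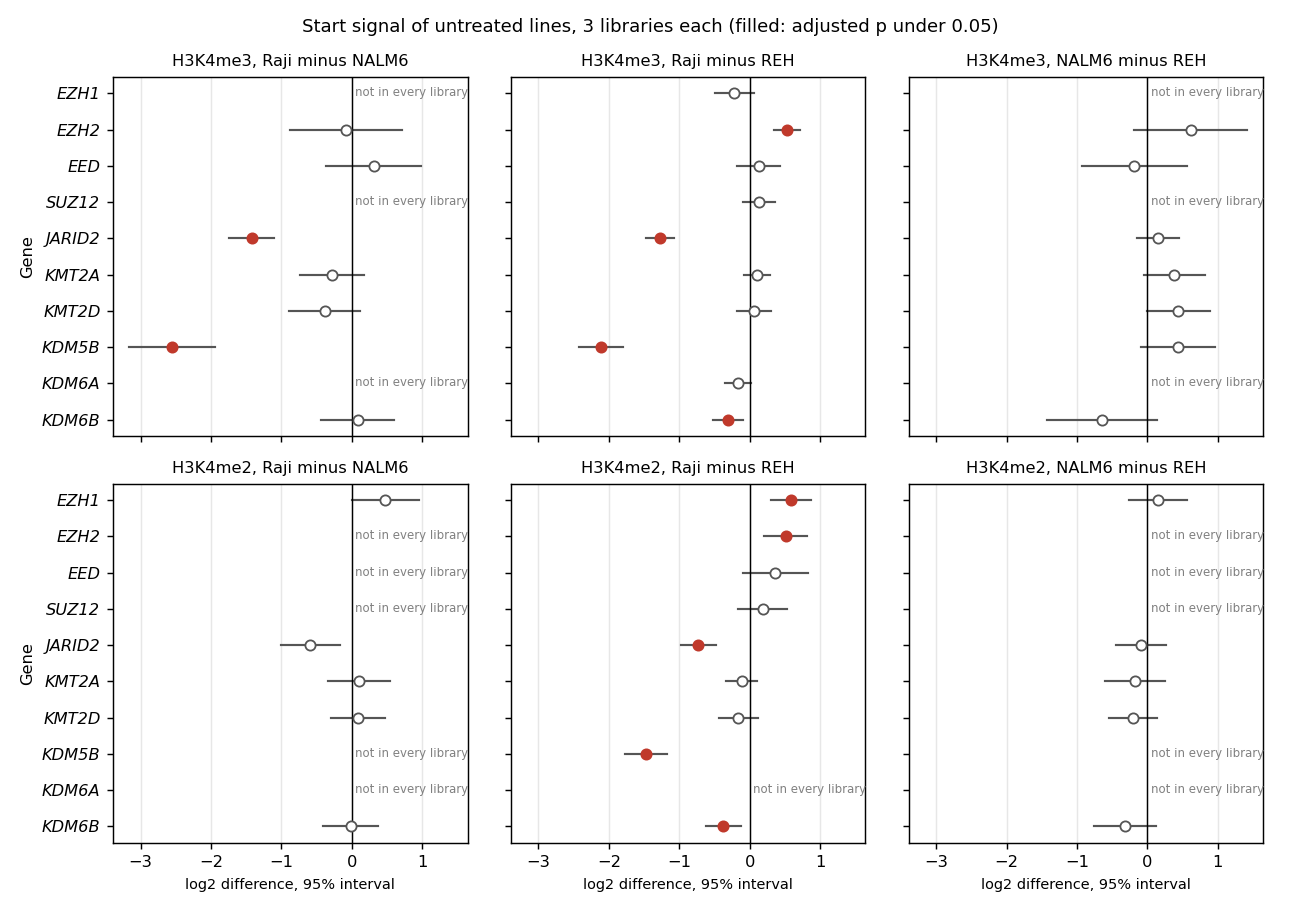
Log2 difference in start signal between untreated lines for each gene, with 95% intervals, in H3K4me3 (top row) and H3K4me2 (bottom row). Each estimate compares 3 libraries with 3, and filled points passed an adjusted p of 0.05. KDM5B and JARID2 lie furthest from 0 in the H3K4me3 panels that set Raji against REH and NALM6.

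H3K4me2 at the same starts gave the same sign for KDM5B and JARID2 in Raji against REH. KDM5B was 0.460, 0.548 and 0.503 times the median region in Raji and 1.29, 1.37 and 1.54 in REH, a 2.78-fold difference (−1.48 ± 0.14, adjusted p 1.91e-06). JARID2 was lower in Raji by 0.73 ± 0.11 (adjusted p 0.00016). EZH1 and EZH2 were higher in Raji, by 0.59 ± 0.13 (adjusted p 0.0023) and 0.51 ± 0.14 (adjusted p 0.0093), and KDM6B was lower, −0.38 ± 0.12 (adjusted p 0.016). The calls of KDM6B, EZH2 and EZH1 were lost in 5 of 19, 4 of 18 and 2 of 18 alternative settings. All 5 were without overlap between the groups. Here 5 of 9 genes differed, beside 46.8% of 7999 regions (2 higher in Raji, beside 23.8%, and 3 lower, beside 23%), and 5 of 9 did not overlap, beside 56%. The H3K4me2 and H3K4me3 libraries of a line are separate libraries with other depths.

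Between Raji and NALM6 none of the 5 genes with H3K4me2 in every library passed (background 18.9%, with 8.26% higher in Raji and 10.7% lower). The count at an unadjusted p under 0.05 (limma) was 2, beside 1313 of 4093 regions. JARID2 came nearest, at −0.59 ± 0.18 and an adjusted p of 0.055, and 2 of the 5 did not overlap, beside 40.6%. It passed without NALM6 untreated replicate 1, at −0.75 and an adjusted p of 0.0013. KDM5B could not be tested there, since NALM6 untreated replicate 1 had no H3K4me2 peak at it. In the 4 NALM6 libraries other than replicate 1 its H3K4me2 signal per base was 272 to 360 RPKM, against 110 to 168 in the 6 Raji libraries. Between NALM6 and REH 0 of 5 passed by limma (background 11.4%, with 6.08% higher in NALM6 and 5.37% lower). There were 0 at an unadjusted p under 0.05, beside 1273 of 4902 regions, and 0 did not overlap, beside 38.4%.

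The comparison of lines was repeated on the treated libraries, a choice made after the data had been seen. KDM5B, JARID2, EZH2 and KDM6B again passed between Raji and REH in H3K4me3, with EZH1 (−0.48) and KMT2D (0.25) in addition, 6 of 10 genes beside 54.3% of all regions. Between Raji and NALM6 KDM5B and JARID2 again passed, of 7 tested and beside 18.9% of all regions.

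Bryostatin had no called effect on the starts of these genes. In H3K4me3, 0 of 10 genes passed for Raji, 0 of 6 for NALM6 and 0 of 10 for REH, beside 0.155%, 0% and 1.67% of all regions. In H3K4me2, 0 of 9, 0 of 5 and 0 of 9 passed, beside 0%, 0% and 1.45%. At an unadjusted p under 0.05 the counts of genes were 1, 0 and 1 in H3K4me3 and 0 in each line in H3K4me2 (limma). Over all regions they were 511 of 9040, 7 of 3838 and 763 of 7238 in H3K4me3. In H3K4me2 they were 626 of 9316, 56 of 4128 and 1066 of 10791. With so few regions past the adjusted threshold, the counts do not set the genes apart. The estimates bound what could have been missed. In REH H3K4me3 the 95% intervals of the 10 genes lay between −0.32 and 0.45 on the log2 scale, and in Raji between −0.66 and 0.48. In NALM6 they reached from −1.01 to 1.09, so for some genes a change of up to 2-fold lies inside the interval. All these intervals are unadjusted and from fits without replicate number as a block. In H3K4me2 the intervals ran from −0.58 to 0.77 (Raji), −0.89 to 0.66 (NALM6) and −0.44 to 0.30 (REH).

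The median size of the change was close to that of all regions in each line. In H3K4me3 the genes had 0.10 and all regions 0.10 for Raji, with 0.11 and 0.14 for NALM6 and 0.05 and 0.07 for REH. With the replicate number as a block, 132 regions in place of 14 passed in Raji H3K4me3 and 202 in place of 121 in REH, and still none of the 10 genes.

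The genes nearest to a change were EZH1 and JARID2. In Raji the H3K4me3 signal of EZH1 was 0.701, 0.574 and 0.570 times the median region untreated and 0.460, 0.485 and 0.478 treated. These groups do not overlap, and the change was −0.37 ± 0.13 with an unadjusted p of 0.021 and an adjusted p of 0.76. The EZH1 start in REH gave −0.11 ± 0.09, and in NALM6 it was not called in every library. JARID2 in REH was 2.10, 1.82 and 1.87 untreated and 2.27, 2.27 and 2.08 treated, 0.20 ± 0.07 with an adjusted p of 0.28, and its groups overlap. KMT2D in Raji H3K4me3 was 3.98, 4.87 and 5.12 untreated and 5.66, 5.19 and 5.28 treated, with an adjusted p of 0.88. The genes without overlap numbered 2 of 10 in Raji H3K4me3 (12.4% of all regions), 1 of 9 in Raji H3K4me2 (10.7%) and 0 in the other lines (5.11% and 17.6% in H3K4me3, 10.4% and 14.7% in H3K4me2, for NALM6 and REH).

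**Figure D3:**
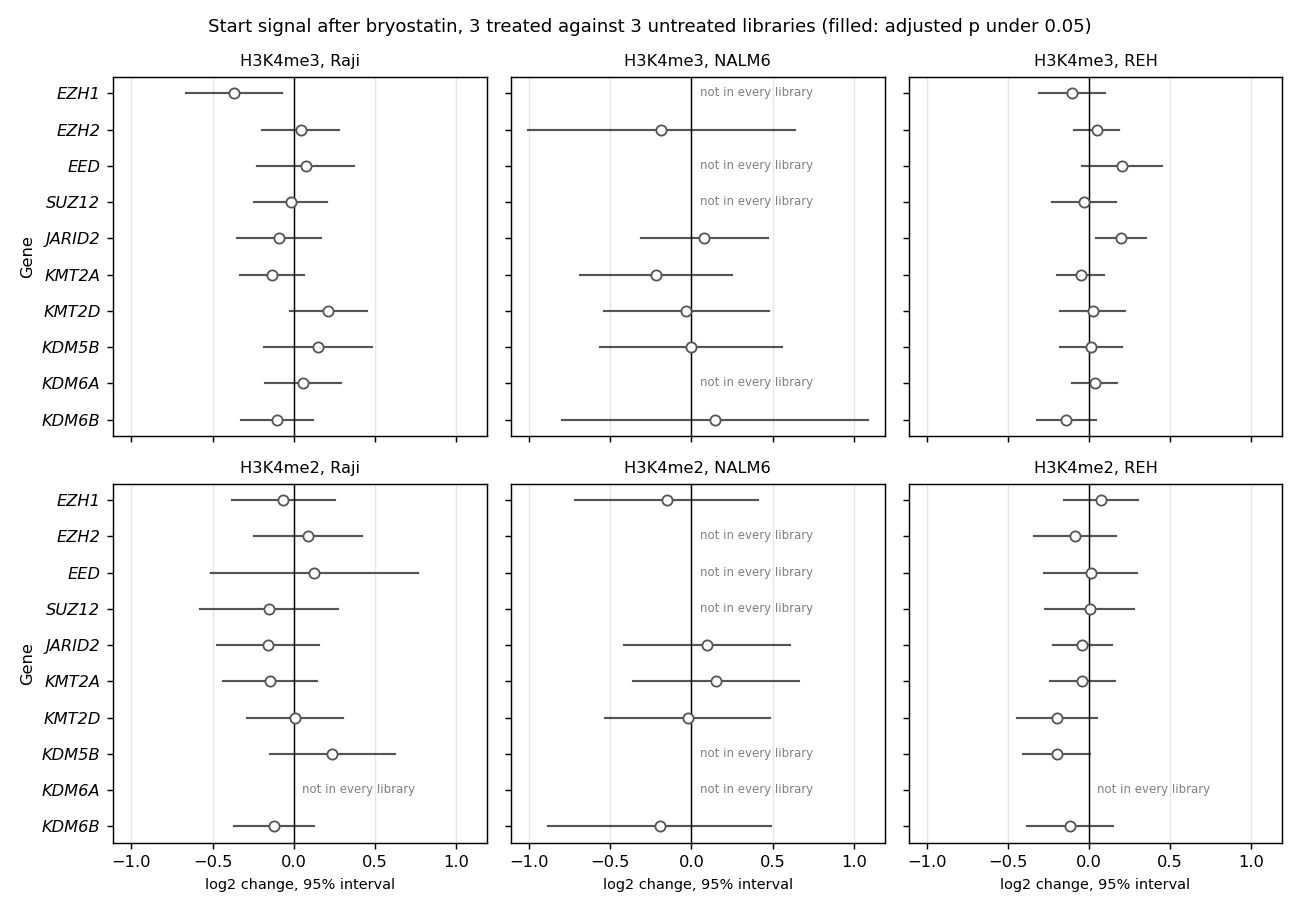
Log2 change in start signal after bryostatin for each gene and line, with 95% intervals, in H3K4me3 (top row) and H3K4me2 (bottom row), 3 treated against 3 untreated libraries. No point is filled, as none passed an adjusted p of 0.05. The intervals are widest in NALM6.

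In Raji H3K4me2 the peak shape moved with the treatment and with depth. Treated libraries had 15.6M to 18.8M mapped reads and untreated ones 6.70M to 13.9M. The EED peak was 134 to 180 RPKM per base untreated and 106 to 117 treated, and that of EZH2 227 to 281 and 149 to 195, neither with overlap. Over the same libraries the EZH2 peak went from 1610 to 2910 bp to 3190 to 4900 bp, so the lower level per base came with a longer peak. The total signal of both regions differed by 0.13 ± 0.29 at EED and 0.09 ± 0.15 at EZH2 on the log2 scale. The part of depth in the level per base was not tested.

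No difference between lines in the response to bryostatin passed the test at these starts. The interaction of line and treatment was tested for 10 genes in Raji against REH H3K4me3 and for 6 in each comparison with NALM6, and 0 passed, beside 0.0776% of regions for Raji against REH and 0% for the others. At an unadjusted p under 0.05 (limma) the count was 1, 0 and 0 for Raji against REH, Raji against NALM6 and NALM6 against REH. Over all regions it was 287 of 6447, 47 of 3579 and 44 of 3715. In H3K4me2 the interaction was tested for 9, 5 and 5 genes in the same order with 0 passing, beside 0.0275%, 0% and 0%. The counts at an unadjusted p under 0.05 were 1, 0 and 0, beside 479 of 7267, 33 of 3295 and 106 of 3856 regions.

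The other genes of these pathways, 26 in a list with further PRC2 subunits, H3K4 writers and their shared COMPASS subunits and partners, and H3K4 erasers, are described next. H3K4me3 was at a start in all 18 libraries for 17 of 26 and H3K4me2 for 10 of 26, beside 21.8% and 17.8% of all genes. Bryostatin changed 0 of them in H3K4me3 or H3K4me2 in any line, out of 9 to 26 tested (limma), beside 0% to 1.67% of all regions. The most at an unadjusted p under 0.05 was 3 of 26, in Raji H3K4me3, beside 511 of 9040 regions. In H3K27me3 none of them could be tested for bryostatin. Between Raji and REH, 13 of 25 differed in H3K4me3, 6 higher in Raji and 7 lower, a share near the 51.3% of all regions. ASH2L, a core COMPASS subunit, was lower in Raji by 1.56 ± 0.12 and EPOP, a PRC2 accessory protein, was lower by 1.24 ± 0.18, while AEBP2, a PRC2 accessory subunit, was higher by 1.09 ± 0.10. In H3K4me2, 14 of 24 differed (46.8% of all regions), led by ASH2L (−1.37 ± 0.18), AEBP2 (1.33 ± 0.16) and HCFC1 (−1.21 ± 0.16).

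Against NALM6, Raji differed at 3 of 19 in H3K4me3 (20.2% of all regions), which were SETD1B (−1.26 ± 0.24), AEBP2 (0.89 ± 0.16) and PAGR1 (0.81 ± 0.22), and at 3 of 13 in H3K4me2 (18.9% of all regions), KMT2B (1.59 ± 0.26), ASH2L (−1.39 ± 0.21) and PAGR1 (1.07 ± 0.18). SETD1B is an H3K4 methyltransferase, as is KMT2B, and PAGR1 is a partner of KMT2C and KMT2D. Between NALM6 and REH, EPOP (−1.01 ± 0.15) in H3K4me3 and PAGR1 (−1.20 ± 0.17) in H3K4me2 were the called genes, of 19 and 13, beside 7.15% and 11.4% of all regions. The one gene of the list with an H3K27me3 region in all untreated NALM6 and REH libraries was EPOP, with 1.07 ± 0.33 in NALM6 minus REH and an adjusted p of 0.022, beside 62.3% of 385 regions (29.9% higher in NALM6 and 32.5% lower), and its groups did not overlap, as in 71.4% of regions. EPOP had an H3K27me3 start peak in 6 of 18 libraries, and a merged region can reach beyond the peaks at a start. In these fits, which include NALM6 replicate 1, H3K4me3 at EPOP was lower and H3K27me3 higher in NALM6 than in REH. Fits without that replicate are not given here for EPOP, so the 2 marks are not read together.

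KDM5B and JARID2 had the largest range of H3K4me3 group means of the members with a canonical start peak in all 18 libraries, 2.55 on the log2 scale for both, where the next, EZH2, had 0.59. This range spans all groups of line and treatment and is another measure than the merged regions above. On those, Raji differed from REH and NALM6 by −1.27 and −1.42 at JARID2, and by −2.11 and −2.56 at KDM5B. The equal ranges thus do not make the 2 genes equal between lines. Of 4103 protein-coding genes with such peaks, those with the pattern most like KDM5B over the 18 libraries were ZSWIM6, IGF1R and SOX4, with Pearson's r of 0.996, 0.993 and 0.993. Those most like JARID2 were HMBOX1 and INTS9, which share 1 peak, both with 0.923, and ACAA2 with 0.909. KDM5B and JARID2 had 0.66 with each other. These are descriptions over libraries that share lines, depth and the scaling of NALM6 replicate 1, which holds for every gene compared.

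H3K4me2 over the gene bodies also differed between lines by presence, and most at JARID2, which spans 275974 bp. An intronic region at chr6:15263871-15269960, centred 20846 bp from the start, was called in 3 of 3 libraries of both REH groups, in 1 untreated and 2 treated NALM6 libraries, and in 0 of 6 Raji libraries. Another at chr6:15398151-15402040 was called in 2 of 3 libraries of both NALM6 groups and in no other line. In Raji the regions lay elsewhere, with chr6:15311881-15314920 in 2 untreated and 3 treated libraries, also called in 1 and 2 REH libraries. None overlaps an exon of the canonical transcript or lies within 1 kb of an annotated start. These are counts of calls with no test.

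**Figure D4:**
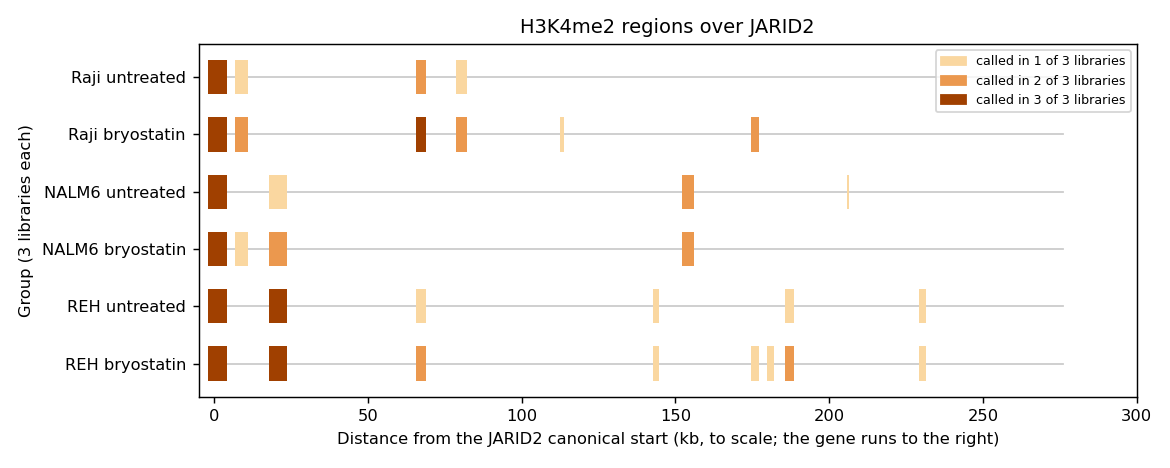
H3K4me2 regions over JARID2, by distance from its canonical start in kb, for the 6 groups of 3 libraries. Colour gives the number of libraries with the region, and the line marks the gene. The region near the start is in all 18 libraries, and the one centred 20846 bp into the gene is in all REH libraries and no Raji library.

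KDM6A and KMT2A had intronic H3K4me2 regions called in Raji alone. For KDM6A these were chrX:44897431-44900160 in 2 libraries of each treatment and chrX:44905831-44908110 in 1 untreated and 2 treated libraries. For KMT2A it was chr11:118441471-118444170 in 1 untreated and 2 treated libraries. EED (chr11:86201212-86278813, plus strand) has an annotated start far upstream of the canonical one, at 86201212 where that one is at 86244753, and H3K4me2 there was called in 2 libraries of each Raji group, 1 of each REH group and none of NALM6. SUZ12 (chr17:31937007-32001038, plus strand), a core PRC2 subunit, had no region of any of the 3 marks other than that at its start, and the same held for EZH1 and EZH2.

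H3K27me3 was seldom called at these genes. In 1 library, Raji untreated replicate 2, all 10 starts carried an H3K27me3 peak. That library stands apart over the genome: 86.9% of the starts marked by H3K4me3 in its own H3K4me3 counterpart carried an H3K27me3 peak, where the other 17 libraries had 0.293% to 12.8%, and 34.8% of its peaks lay over H3K4me3 peaks, where the others had 0.819% to 7.20%. The 10 peaks in it were 1150 to 5940 bp long with 61.0 to 248 RPKM per base, and their order in signal was led by EZH2, KMT2D and KMT2A, which also lead in H3K4me3. It may not be what its label says, and what set it apart was not tested. With it, 19 of 180 pairs of gene and library had an H3K27me3 start peak, and without it 9. Among all protein-coding genes, 0.963% to 57.0% had an H3K27me3 start peak in a library, with a median of 13.9% over the 18 libraries.

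The 9 others fell at KDM5B, KDM6B, EZH2, EZH1 and EED, so 5 of 10 genes had a start peak in at least 1 of the 17 libraries, beside 46.4% of all genes. KDM5B had one in Raji untreated replicate 3 and Raji bryostatin replicate 3. These 2 libraries had an H3K27me3 start peak at 27.4% and 28.1% of all genes. In the first, 4 peaks covered 8.28% of the gene and the start peak was 2630 bp with 11.9 RPKM per base, at percentile 0.25 of marked starts. In the second, 0.818% was covered. KDM5B had no H3K27me3 start peak in any NALM6 or REH library, and none in the 3 shallow Raji libraries with 819 to 3424 peaks. A link of these calls to its lower H3K4me3 in Raji was not tested.

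KDM6B had H3K27me3 start peaks in Raji bryostatin replicate 3 and in NALM6 bryostatin replicates 2 and 3, EZH2 in NALM6 bryostatin replicates 1 and 3, EZH1 in NALM6 bryostatin replicate 3 and EED in NALM6 bryostatin replicate 2. The EED peak was at an annotated start other than the canonical one. NALM6 bryostatin replicate 3 had 6.86M mapped reads and a median peak length of 380 bp. No untreated NALM6 library and no REH library of either treatment had an H3K27me3 start peak at any of the 10 genes. A peak of REH bryostatin replicate 3 ended 1197 bp before the start of KDM6B, just outside the 1 kb window. The treated NALM6 libraries had 590, 35029 and 78673 peaks over the genome in replicates 1 to 3 and the untreated ones 1444, 21298 and 7219, so the treated library had more peaks in replicates 2 and 3 and fewer in replicate 1. With an equal number of peaks taken from each library, the 590 strongest by total signal, 2 of 180 pairs had a start peak. These were EZH2 in NALM6 bryostatin replicate 1 and KMT2D in Raji untreated replicate 2. The number 590 is that of NALM6 bryostatin replicate 1, which therefore kept all its peaks, so its EZH2 peak could not be lost.

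**Figure D5:**
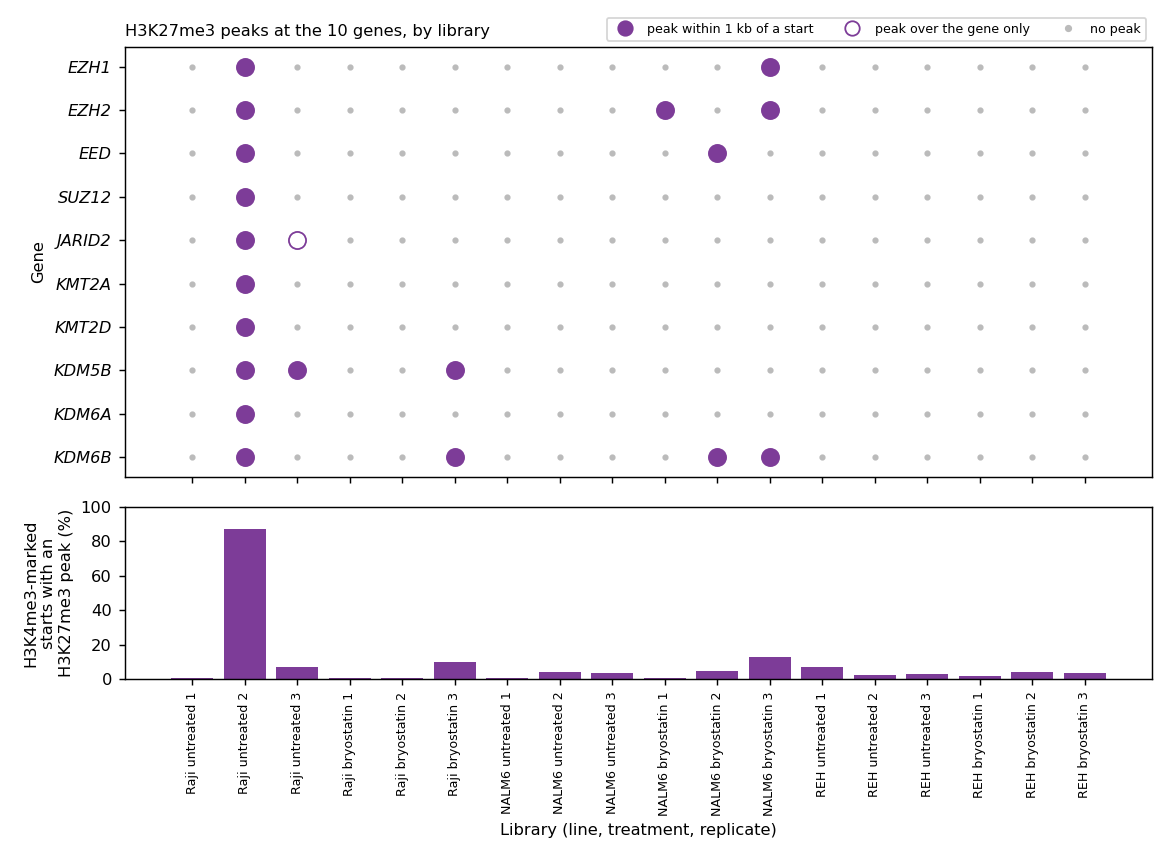
H3K27me3 peaks at the 10 genes in each of 18 libraries (top) and the percent of H3K4me3-marked starts of the genome with an H3K27me3 peak in the same library (bottom). Filled points are start peaks, the open point is a peak over the gene only. Raji untreated replicate 2 has all 10 start peaks and 86.9% in the lower panel.

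Over whole genes, H3K27me3 covered a mean of 0.528% of the 10 genes over 18 libraries and 0.165% without Raji untreated replicate 2. The covered percent was compared between treatments for each gene and line with an exact two-sided permutation test, which cannot go below 0.1 with 3 libraries against 3. The lowest p was 0.4, at KDM5B and JARID2 in Raji, with Raji untreated replicate 2 included. For KDM5B in Raji the mean was 3.40% ± 4.34 (SD, n = 3) untreated and 0.273% ± 0.472 treated. Without that library, a choice made after the data had been seen, the untreated mean was 4.14% over 2 libraries and the exact permutation p was 0.8 for both genes. With 2 libraries against 3 the floor of the test is higher than 0.1. For JARID2, Raji untreated replicate 3 was then the only Raji library with coverage, so its p was fixed in advance. No region of the 10 genes was called in every H3K27me3 library of a comparison, so no signal could be compared in the way of the H3K4 marks.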

How the data were processed

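Cut&Tag of H3K4me3, H3K4me2 and H3K27me3 was analysed in 54 libraries. The authors trimmed reads with Trim Galore, aligned them to hg38 with Bowtie2, normalized coverage by RPKM and called peaks in each library with SEACR. The deposited signal values are the sum and the maximum of that coverage over each peak. The submitters' processing notes also name bcl2fastq and DESeq2. Depth was read from the step between RPKM values in 48 libraries. It is unknown for NALM6 replicate 1, whose scaling is not stated.

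Peaks of chromosomes 1 to 22, X and Y were used, with starts and gene bodies from GENCODE 44. Peaks of the libraries of a comparison that overlapped by 1 bp were merged, and the log2 of their summed total signal was taken for regions called in all of them, less the median of that library. A gene's start region was the merged region within 1 kb of its Ensembl canonical start with the highest mean total signal. The test was limma 3.58.1 under R 4.3.3, moderated with a trend in eBayes, over all such regions, with Benjamini-Hochberg adjustment at 0.05. It was tried on simulated data in which libraries varied independently, unlike the same-numbered libraries described below. There it recovered 82%, 46% and 98% of simulated bryostatin changes of 1 on the log2 scale in H3K4me3 for Raji, NALM6 and REH. A fold is 2 to the power of the log2 difference. Tables were made with GenomicRanges 1.54.1, the R package data.table (1.17.8), Python 3.11.15, numpy 2.4.6, pandas 2.3.3 and scipy 1.17.1, and figures with matplotlib 3.10.9.

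The members, the list of 26 other genes, the marker lists and the tests were chosen with earlier results of these data known. One gene of the B-lineage marker list is not reported here. The text names the 10 members throughout, of the 26 at most 3 called genes per comparison by size of change, and for the 2 members with the widest range the 3 genes of most like pattern. Same-numbered libraries of the 2 treatments deviated together in every pair for H3K4me3 in all 3 lines (0.18 to 0.68) for H3K4me2 in NALM6 and REH (0.13 to 0.45) and for H3K27me3 in NALM6 (0.65 to 0.66), as found from the data, and not in the comparisons of lines. Other signal measures, scalings, filters, windows, overlaps and left-out libraries were tried.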

Additional observations from a re-analysis of the deposited data

How the results depend on the processing

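The count of members changed by bryostatin, or responding differently between lines, was 0 under every alternative run for H3K4me3 and H3K4me2. The H3K27me3 comparisons of signal could not be run for the members. A fit with replicate number as a block left the member counts between lines as they were, 2 of 7, 4 of 10 and 0 of 7 in H3K4me3 and 0 of 5, 5 of 9 and 0 of 5 in H3K4me2, so the block changed no count of members. The H3K27me3 coverage in NALM6 was also permuted within replicate numbers for EED, EZH1, EZH2 and KDM6B. Each had coverage in 1 treated library and no untreated one, so this permutation could not show a change. The other members had no H3K27me3 coverage in NALM6.

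For Raji against NALM6, H3K4me3, the 2 members became 0 without centring, 0 with the stronger peaks of each library (those at or above its median total signal), where neither KDM5B nor JARID2 could be tested, and 5 without replicate 1 of both lines, with 2 to 5 over left-out libraries. EZH2 in that comparison turned from −0.09 to 0.26 (adjusted p 0.025) without replicate 1 of both lines, with −0.32 to 0.27 over left-out libraries. For Raji against REH, H3K4me3, the 4 became 2 without centring and 2 with the stronger peaks, again without KDM5B and JARID2, and 3 to 5 over left-out libraries. For NALM6 against REH, H3K4me3, the 0 became 4 without NALM6 untreated replicate 1 and 4 without replicate 1 of both, with a range of 0 to 4. The share of all regions called there rose from 7.15% to 44.7% and 40.3%. For Raji against NALM6 it rose from 20.2% to 45.1% without NALM6 untreated replicate 1. Shares for the other settings are not given here, so these counts are not read as results about the members.

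In H3K4me2, Raji against NALM6 went from 0 to 1 with maximum signal, 1 with no trend, 2 with regions not called in every library, 3 in treated libraries and 2 without NALM6 untreated replicate 1 or without replicate 1 of both, with 0 to 2 over left-out libraries. Raji against REH went from 5 to 3 without centring, 1 with the stronger peaks and 3 without REH untreated replicate 2, with 3 to 5 over left-out libraries. NALM6 against REH ranged from 0 to 1, the latter without NALM6 untreated replicate 1. The cause was not tested, but the stronger peaks and the left-out libraries change the regions tested. The share of all regions called in each of these H3K4me2 settings is not given here, so the counts are not read as results about the members.

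Start peaks of H3K4me2 fell from 165 to 107 pairs with the stronger peaks. H3K27me3 start peaks fell from 19 pairs to 11 with the stronger peaks, 2 with an equal number of peaks, 9 without Raji untreated replicate 2 and 7 without replicate 2, with 7 to 18 over left-out replicates. The KDM5B and JARID2 differences between Raji and REH passed in both marks under the 18 alternatives that gave each a value, from −2.29 to −0.99 and −1.56 to −0.63.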
